A study of Mus musculus with 12 samples.

Results

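The cytosolic sulfotransferases described here are 10 genes of the mouse Sult family, Sult1a1, Sult1b1, Sult1c2, Sult1d1, Sult1e1, Sult2a1, Sult2a2, Sult2a8, Sult3a1 and Sult3a2. They were taken by symbol from a table of 35275 genes listed by Ensembl identifier, and all 10 had a row. Liver RNA was sequenced from 12 male mice, with 3 mice in each of 4 groups: wild-type (WT) on chow, Pctp-/- on chow, WT on MCD and Pctp-/- on MCD. Pctp-/- mice carry an established whole-body knockout of PC-TP, the phosphatidylcholine transfer protein, so every tissue lacked it and not the liver alone, and MCD is a diet depleted of methionine and choline that injures the liver. The age of these mice and the time on the diet are not given in the sources used here. Values are FPKM, which correct fragment numbers for gene length and library depth, so levels can be set side by side between genes.

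Cytosolic sulfotransferases move a sulfonate group from the donor PAPS to hydroxyl or amine groups of hormones, bile acids, neurotransmitters and drugs, which usually makes the product more soluble and, for a hormone, inactive. The SULT1 enzymes act mainly on phenols, among them oestrogens, thyroid hormone and catecholamines. The SULT2 enzymes act on hydroxysteroids and bile acids, and the SULT3 enzymes on amines. The liver is a main site of this conjugation, and in mouse liver several of these genes, including Sult1e1, Sult2a1 and Sult3a1, are known to differ by sex.

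The libraries held 30486576 to 55179468 uniquely mapped reads, with a median of 40511582. Between 77.6 and 79.4% of reads mapped uniquely in the chow libraries, with a read error rate of 0.03% in each, and between 85.7 and 87.5% in the MCD libraries, with a rate of 0.01% in each. The labels name no sequencing batch. These read measures differed with diet, so an effect of diet and of what lies behind them cannot be told apart, whereas the genotypes were compared within a diet. Pctp was listed at 2.04 ± 0.746 FPKM in WT and 0.420 ± 0.127 in Pctp-/- mice on chow, and at 5.54 ± 2.18 and 0.259 ± 0.0909 on MCD (SD, n = 3), and on each diet the genotypes did not overlap. The hepatocyte list of 10 markers (Alb, Apoa1, Ttr and others) summed to 47873 to 56962 FPKM in WT and 53533 to 56180 in Pctp-/- mice on chow, and to 63341 to 70415 and 77736 to 84391 on MCD, where the genotypes did not overlap, and 0 of its genes were at 0 throughout. The list of 7 macrophage markers summed to 42.7 to 70.7 FPKM in WT on chow, 38.2 to 95.8 in Pctp-/- on chow, 118 to 189 in WT on MCD and 104 to 106 in Pctp-/- on MCD, and 0 of its genes were at 0 in all libraries. On MCD, 6 of the 7 were higher in WT and 4 in Pctp-/- mice. The summed stellate cell and fibroblast list of 8 was 10.4 to 24.2 FPKM in WT and 16.2 to 20.2 in Pctp-/- on chow, and 23.3 to 53.3 and 22.5 to 29.8 on MCD, with 4 and 3 genes higher. For the knockout on MCD, 0 genes of the macrophage, stellate, endothelial, cholangiocyte, lymphocyte and hepatocyte lists were called in limma, and 1, 2, 1, 0, 0 and 3 had an unadjusted p under 0.05, against 2026 of 12466 tested genes. On the diet, the endothelial list had 3 of 7 genes higher in WT and 1 in Pctp-/-, the cholangiocyte list 1 of 5 tested higher in WT and 2 lower in Pctp-/-, the lymphocyte list 1 of 4 tested higher in each, and the hepatocyte list 1 of 10 higher and 5 lower in each. Over all tested genes, 34.5% were higher and 22.5% lower on MCD in WT, and 26.0% and 24.4% in Pctp-/- mice. The part of these cells in the diet values below was not tested. In whole liver, fewer cells of a type and less RNA per cell cannot be told apart.

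The sequences before the starts of 4 of these genes are shown because these genes carry the main differences: Sult1e1 had the largest rise on the diet, Sult2a8 was the one that fell, and Sult3a1 and Sult3a2 differed between the genotypes on MCD. RefSeq promoters on GRCm38.p6, running from 250 bases before to 50 bases after an annotated start and written 5′ to 3′ on the strand of the gene, were found for 8 of the 10 genes. Capitals mark the letters AGGTCA, the core bound by many nuclear receptors, TTCNNNGAA, the core bound by STAT5 and BCL6, and TATAAA, each on either strand. They are in 16.3%, 8.3% and 13.6% of 32851 promoters of this length.

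Sult1e1 (chr5:87591562-87591861, minus strand): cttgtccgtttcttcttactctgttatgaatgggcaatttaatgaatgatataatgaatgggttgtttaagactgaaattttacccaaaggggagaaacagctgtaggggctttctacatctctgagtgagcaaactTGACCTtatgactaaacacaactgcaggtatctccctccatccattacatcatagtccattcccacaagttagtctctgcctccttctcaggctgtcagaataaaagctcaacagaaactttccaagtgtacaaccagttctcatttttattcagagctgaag

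Sult3a1 (chr10:33857472-33857771, plus strand): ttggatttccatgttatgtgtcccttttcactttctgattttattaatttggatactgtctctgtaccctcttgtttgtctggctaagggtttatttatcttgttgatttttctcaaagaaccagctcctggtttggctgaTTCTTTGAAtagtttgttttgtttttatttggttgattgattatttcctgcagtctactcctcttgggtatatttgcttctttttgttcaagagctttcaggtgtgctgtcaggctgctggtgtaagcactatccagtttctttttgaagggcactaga

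Sult3a2 (chr10:33782066-33782365, minus strand): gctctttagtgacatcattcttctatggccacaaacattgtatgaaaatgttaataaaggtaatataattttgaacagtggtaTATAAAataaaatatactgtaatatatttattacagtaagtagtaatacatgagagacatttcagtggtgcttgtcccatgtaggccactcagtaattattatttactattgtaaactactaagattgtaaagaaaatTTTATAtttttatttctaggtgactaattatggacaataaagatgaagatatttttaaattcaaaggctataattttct

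Sult2a8, upstream start (chr7:14446538-14446837, minus strand): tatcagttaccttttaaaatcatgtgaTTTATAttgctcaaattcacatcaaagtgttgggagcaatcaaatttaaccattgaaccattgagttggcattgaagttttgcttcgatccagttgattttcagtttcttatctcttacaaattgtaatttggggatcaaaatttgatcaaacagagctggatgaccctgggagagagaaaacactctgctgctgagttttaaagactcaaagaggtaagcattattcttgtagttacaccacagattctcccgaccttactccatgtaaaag

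Sult2a8, downstream start (chr7:14438502-14438801, minus strand): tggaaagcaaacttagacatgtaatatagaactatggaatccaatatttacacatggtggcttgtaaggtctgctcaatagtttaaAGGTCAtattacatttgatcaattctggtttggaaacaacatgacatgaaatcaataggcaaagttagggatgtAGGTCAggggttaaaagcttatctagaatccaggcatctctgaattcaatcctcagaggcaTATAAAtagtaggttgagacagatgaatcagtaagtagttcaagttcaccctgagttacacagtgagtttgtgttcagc

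The Sult1e1 window held 1 AGGTCA core on the opposite strand, at -113 from the start. The Sult3a1 window held 1 TTCNNNGAA match at -109. That of Sult3a2 held TATAAA letters at -167 and, on the opposite strand, at -29, and no TTCNNNGAA match. On the gene coordinates given below, the Sult3a2 window lies inside the gene, whose minus-strand start is at 33786704. The upstream Sult2a8 window held TATAAA letters on the opposite strand at -223. The downstream one held AGGTCA at -164 and -90 and TATAAA at -29, all on the gene strand. These matches describe letters in a window and are not binding sites.

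The genes lie in clusters. On GRCm38, Sult1b1 (ENSMUSG00000029269, chr5:87513339-87538195), Sult1d1 (ENSMUSG00000029273, chr5:87554645-87569027) and Sult1e1 (ENSMUSG00000029272, chr5:87575969-87591594) follow each other on the minus strand, with gaps of 16.4 and 6.9 kb and 0 protein-coding genes between them. Sult2a8 (ENSMUSG00000030378, chr7:14410686-14446769) lies with Sult2a1 (ENSMUSG00000078798, chr7:13796246-13837409), Sult2a2 (ENSMUSG00000070811, chr7:13733505-13779636) and other Sult2a genes on chromosome 7. Sult3a2 (ENSMUSG00000090298, chr10:33766424-33786704) and Sult3a1 (ENSMUSG00000069668, chr10:33857721-33879532) are 71.0 kb apart on opposite strands. Sult1c2 (ENSMUSG00000023122, chr17:53829637-53846339) and Sult1a1 (ENSMUSG00000030711, chr7:126672865-126676432) lie apart from these. The Sult3a1 and Sult3a2 coding sequences were 90.9% identical, the closest pair among the 8 genes tested below, but their transcripts shared 0% of windows of 100 bases. Of the Sult2a2 and Sult2a1 windows, 34.6% and 11.4% were shared with other genes, so their reads could have been split, and 2.35% of the Sult1a1 windows were shared with Gm6939. Sult1a1 overlaps Sgf29 and Sult3a1 overlaps the pseudogene Gm47935, each on the opposite strand. Whether the authors' counting used strand is not given in the sources used here, so the values of both genes are uncertain to that extent.

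Sult2a8 and Sult1a1 made up most of the summed FPKM of the 10 genes on chow, and Sult1e1 joined them on MCD. The sum leaves out other sulfotransferases described below. Among these, Sult5a1 was at 46.7 FPKM in WT and 40.6 in Pctp-/- mice on chow (means). Sult2a6 was at 23.7 and 49.3 on MCD. The 10 genes summed to 404 ± 42.0 FPKM in WT and 385 ± 30.1 in Pctp-/- mice on chow, and to 620 ± 2.61 and 742 ± 33.0 on MCD (SD, n = 3). Sult2a8 was 54.6 ± 6.32% of the sum in WT on chow and 52.9 ± 2.42% in Pctp-/- on chow (SD, n = 3). On MCD its share was 13.8 ± 4.17% in WT and 19.5 ± 0.849% in Pctp-/- mice (SD, n = 3). The Sult1e1 share was 0.0234 ± 0.00437% in WT and 0.0164 ± 0.0284% in Pctp-/- on chow, against 30.0 ± 3.95% and 20.6 ± 4.84% on MCD (SD, n = 3). Sult1a1, the phenol sulfotransferase, held a like share throughout, with group means of 36.5 to 40.5%.

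**Figure D1:**
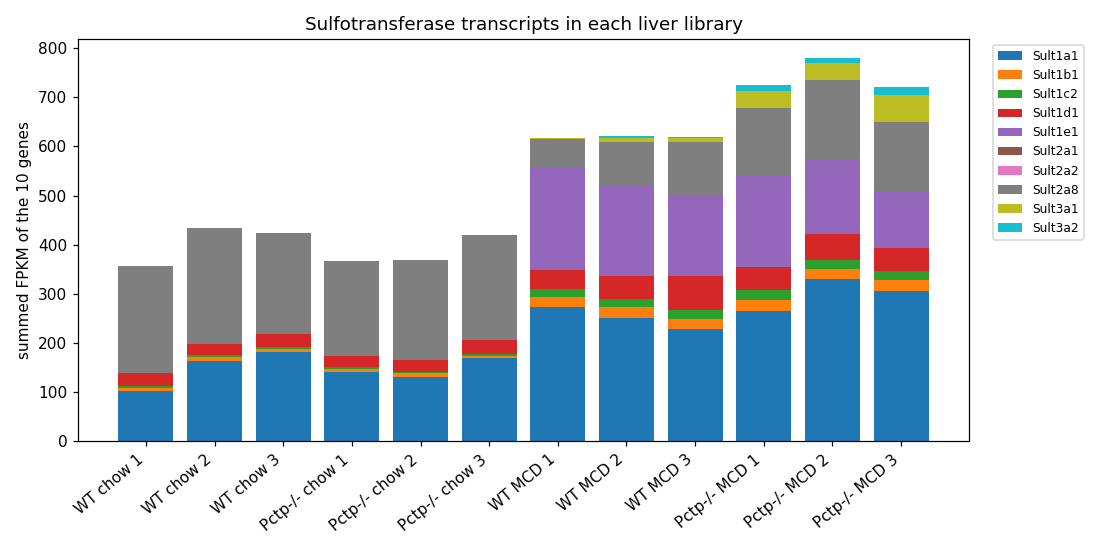
Summed FPKM of the 10 sulfotransferase genes in each of the 12 liver libraries, with 1 bar a mouse and 1 colour a gene. The 6 chow bars reach 356 to 433 and consist mainly of Sult2a8 and Sult1a1, and the 6 MCD bars reach 617 to 780 and hold a Sult1e1 block that is not visible on chow.

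On chow the order of mean FPKM was the same in both genotypes for the first 6 genes: Sult2a8, Sult1a1, Sult1d1, Sult1b1, Sult1c2 and Sult1e1. Among these, each gene's 3 values lay above those of the next. The remaining genes were at or near 0, and in Pctp-/- mice the Sult1e1 values overlapped those of Sult3a1. In WT on MCD the order was Sult1a1, Sult1e1, Sult2a8, Sult1d1, Sult1b1, Sult1c2, Sult3a1 and Sult3a2, with Sult2a8 overlapping Sult1d1 and Sult3a1 overlapping Sult3a2. In Pctp-/- on MCD, Sult3a1 stood between Sult1d1, with which it overlapped, and Sult1b1. Sult1e1 overlapped Sult2a8 there.

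The MCD diet was compared with chow in each genotype with limma on log2(FPKM + 1), and a gene was called at a Benjamini-Hochberg adjusted p under 0.05 over the 12466 genes whose mean FPKM reached 0.5. Of the 10 genes, 8 passed that minimum. Of these, Sult1e1, Sult3a1 and Sult3a2 were near 0 on chow and passed only through the MCD libraries, where they are high. The other tested members exceeded 0.5 FPKM on chow as well. The count of members called therefore supports nothing by itself. In WT, 7 of the 8 were higher on MCD and 1, Sult2a8, was lower, where 34.5% of all tested genes were higher, 22.5% lower and 57.0% called in either direction. In Pctp-/- mice the counts were also 7 higher and 1 lower, where 26.0% of tested genes were higher, 24.4% lower and 50.3% called. The median difference of the 8 was 1.51 in WT and 1.95 in Pctp-/- on the log2(FPKM + 1) scale, against 0.11 and 0.04 over all tested genes. Scaling by the median of ratios moved the median of all genes in WT to -0.001, and the split of calls in WT from 4300 higher and 2810 lower to 3546 and 3527. The 8 calls in each genotype held under that scaling.

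Sult1e1 encodes oestrogen sulfotransferase, which inactivates oestrogens and is normally low in male mouse liver. In WT mice it was listed at 0.0667, 0.119 and 0.102 FPKM on chow and at 210, 185 and 162 FPKM on MCD. In Pctp-/- mice it was at 0, 0.182 and 0 FPKM on chow and at 186, 154 and 117 FPKM on MCD. Every MCD value lay far above every chow value, and Sult1e1 went from rank 14021 or below among all genes of a library on chow to rank 330 to 569 on MCD. The difference was 7.41 (SE 0.15, adjusted p = 4.1e-11 from limma) in WT and 7.15 (SE 0.15, adjusted p = 6.1e-11 from limma) in Pctp-/- mice on the log2(FPKM + 1) scale. It was the highest difference of all tested genes in WT, where the range was -8.94 to 7.41. A ratio of FPKM is not given, since the chow values were near 0. With a pseudocount of 0.1 the WT difference was 9.89.

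The other SULT1 genes were present on chow and higher on MCD. Sult1a1 was at 103, 163 and 182 FPKM in WT and 140, 130 and 168 FPKM in Pctp-/- mice on chow. On MCD it was at 272, 251 and 229 FPKM in WT and 265, 330 and 305 FPKM in Pctp-/- mice. All 6 MCD values exceeded all 6 chow values, and mean FPKM was 1.68 times the chow mean in WT and 2.05 times in Pctp-/- mice, with log2 differences of 0.78 (SE 0.18) and 1.04 (SE 0.18). The adjusted p from limma was 0.00305 and 5.8e-04.

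Sult1b1, whose enzyme acts on thyroid hormone and small phenols, was at 5.59, 7.47 and 6.66 FPKM in WT and 7.52, 7.62 and 5.85 FPKM in Pctp-/- mice on chow. On MCD it was at 20.3, 20.8 and 20.0 FPKM in WT and 23.2, 20.3 and 22.4 FPKM in Pctp-/- mice. The diets were fully apart, and the MCD means were 3.10 and 3.14 times the chow means in WT and Pctp-/- mice (log2 differences 1.51 and 1.53, SE 0.12 each, adjusted p = 1.0e-06 and 1.2e-06 from limma).

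Sult1c2 encodes another SULT1 enzyme. In WT it was at 3.42, 4.21 and 3.81 FPKM on chow and 16.5, 16.7 and 17.4 FPKM on MCD. In Pctp-/- mice it was at 3.63, 2.07 and 3.11 FPKM on chow and 19.5, 18.6 and 18.9 FPKM on MCD. Its MCD means were 4.43 times the chow mean in WT and 6.47 times in Pctp-/- mice, the latter with the lower chow values (log2 differences 1.90 and 2.37, SE 0.13 each, adjusted p = 5.1e-07 and 1.4e-07 from limma).

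Sult1d1, a sulfotransferase of catecholamines, was at 26.4, 22.6 and 26.0 FPKM in WT and 23.0, 24.4 and 29.4 FPKM in Pctp-/- mice on chow. On MCD it was at 38.2, 47.1 and 70.3 FPKM in WT and 46.9, 51.7 and 47.2 FPKM in Pctp-/- mice. WT mouse 3 on MCD stood above the other MCD mice, but all MCD values exceeded all chow values. The log2 differences were 0.98 (SE 0.18, adjusted p = 5.5e-04 from limma) in WT and 0.90 (SE 0.18, adjusted p = 0.00117 from limma) in Pctp-/- mice. The 3 neighbours on chromosome 5 thus all rose on MCD, by amounts that ran from 0.90 for Sult1d1 in Pctp-/- to 7.41 for the adjacent Sult1e1 in WT.

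**Figure D2:**
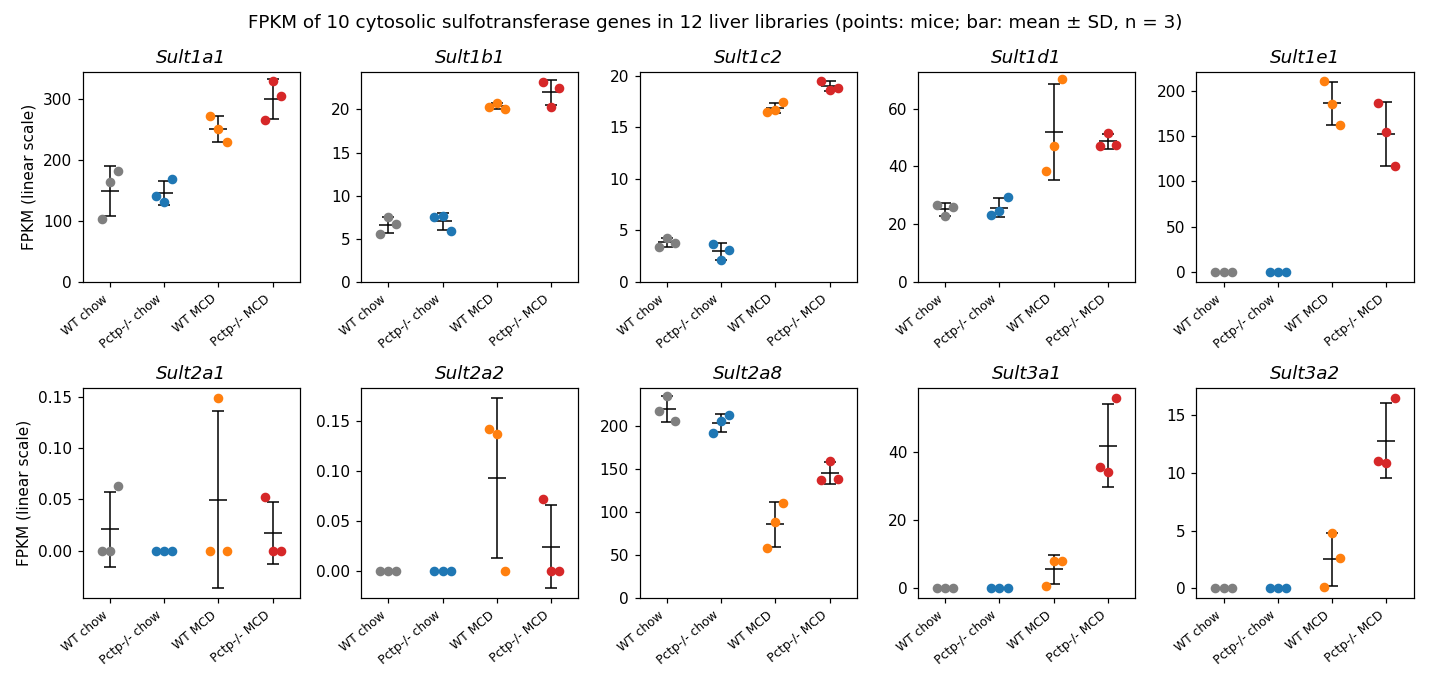
FPKM of each of the 10 sulfotransferase genes on a linear scale with its own range, with 1 point a mouse in the 4 groups and bars for the mean ± SD (n = 3). Sult2a8 is the gene with MCD values below chow values, Sult1e1 is at 0.182 or less on chow and at 117 to 210 on MCD, and Sult3a1 and Sult3a2 are highest in Pctp-/- mice on MCD.

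Sult2a8, whose enzyme sulfonates bile acids in mouse liver, was the member that fell. In WT it was at 218, 235 and 205 FPKM on chow and 58.2, 88.0 and 110 FPKM on MCD. In Pctp-/- mice it was at 192, 205 and 213 FPKM on chow and 137, 160 and 139 FPKM on MCD. The 3 WT mice on MCD were below the 3 Pctp-/- mice on MCD, which were below all chow mice. The MCD mean was 0.389 times the chow mean in WT (log2 difference -1.40, SE 0.18, adjusted p = 3.9e-05 from limma) and 0.713 times in Pctp-/- mice (-0.49, SE 0.18, adjusted p = 0.0358 from limma). The call in Pctp-/- mice was lost without a filter on low values (adjusted p = 0.0728 from limma) and with quantile normalization (-0.38, adjusted p = 0.111 from limma). It was also lost without any of 4 single libraries, Pctp-/- chow mouse 2 or 3 or Pctp-/- MCD mouse 1 or 3, where the adjusted p from limma was 0.0811, 0.0901, 0.0999 and 0.0933.

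The other SULT2 members, Sult2a1 and Sult2a2, hydroxysteroid sulfotransferases, were not tested. Sult2a1 was above 0 in 3 of 12 libraries, at 0.0632 FPKM in WT chow mouse 3, 0.149 in WT MCD mouse 2 and 0.0522 in Pctp-/- MCD mouse 1. Sult2a2 was likewise above 0 in 3 libraries, at 0.142 and 0.137 FPKM in WT MCD mice 1 and 2 and 0.0718 in Pctp-/- MCD mouse 1. At these levels no difference between the groups was detectable.

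Sult3a1, an amine sulfotransferase, and its neighbour Sult3a2 were close to 0 on chow in both genotypes. Sult3a1 was at 0, 0 and 0.0616 FPKM in WT and 0.0949, 0 and 0.0660 FPKM in Pctp-/- mice on chow. On MCD it was at 0.702, 7.98 and 8.13 FPKM in WT and 35.5, 34.1 and 55.9 FPKM in Pctp-/- mice. Sult3a2 was listed at 0 in all 6 chow libraries. On MCD, Sult3a2 was at 0.119, 4.77 and 2.62 FPKM in WT and 11.0, 10.8 and 16.5 FPKM in Pctp-/- mice. The Pctp-/- mice on MCD lay above all other mice for both genes, and WT mouse 1 on MCD had the lowest MCD value of both.

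The diet difference of Sult3a1 on the log2(FPKM + 1) scale was 2.35 (SE 0.49, adjusted p = 0.00144 from limma) in WT and 5.31 (SE 0.49, adjusted p = 4.8e-06 from limma) in Pctp-/- mice. For Sult3a2 it was 1.52 (SE 0.43, adjusted p = 0.00931 from limma) and 3.76 (SE 0.43, adjusted p = 2.4e-05 from limma), with no fold in FPKM because the chow values are listed at 0. Without WT MCD mouse 1, the WT differences were 3.15 for Sult3a1 and 2.19 for Sult3a2, and both remained past the threshold (adjusted p = 4.6e-07 and 1.1e-05 from limma). Without WT MCD mouse 2 the Sult3a2 difference was 1.01 (adjusted p = 0.0371 from limma).

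The question for the knockout was whether Pctp-/- livers differ from WT livers on each diet. On chow, 0 of the 8 tested sulfotransferases were called in limma, Sult3a2 among them with all values at 0, where 0.136% of all tested genes were, 0.0562% higher and 0.0802% lower. At an unadjusted p under 0.05 there was 1 of 8, against 870 of 12466 tested genes. It was Sult1c2, with a log2 difference of -0.31 (95% interval -0.60 to -0.02, adjusted p = 0.675 from limma). In 0 of the 8 did the 3 Pctp-/- values lie apart from the 3 WT values, against 10.6% of tested genes. For the members above 1 FPKM on chow the 95% intervals of the log2 difference all lay within -0.60 and 0.41. The interval of Sult3a1 was wide, from -1.01 to 1.11. Sult1e1, at 0.182 FPKM or less on chow, and Sult3a1 were too low there for a difference to be read.

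On MCD, Sult3a1 and Sult3a2 were higher in Pctp-/- than in WT mice, and 0 members were lower. The 2 of 8 called stand against 0.297% of tested genes called higher, 0.521% lower and 0.818% in either direction, a split of 37 higher and 65 lower that became 69 and 41 with quantile normalization. Both genes were near 0 on chow and passed the minimum FPKM through the MCD libraries, and the members were chosen with earlier results known. The count of 2 therefore supports nothing by itself. Mean Sult3a1 was 5.61 ± 4.25 FPKM in WT and 41.8 ± 12.2 in Pctp-/- mice (SD, n = 3), a ratio of 7.46. Its log2 difference was 3.01 (SE 0.49, adjusted p = 0.0171 from limma), the highest of all tested genes, whose range was -3.13 to 3.01. Mean Sult3a2 was 2.50 ± 2.33 and 12.8 ± 3.23 FPKM (SD, n = 3), a ratio of 5.12, with a log2 difference of 2.25 (SE 0.43, adjusted p = 0.0329 from limma). Both genes were higher in 3 of 3 Pctp-/- mice than in any WT mouse. The summed hepatocyte markers were also higher in Pctp-/- mice on MCD (77736 to 84391 against 63341 to 70415 FPKM). Taken singly, the 10 markers went both ways, with log2 differences of -0.69 to 0.70, a median of 0.14 and 0 called. The part of these markers in this result and in the Sult2a8 values below was not tested.

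These calls depended on the fit and on single mice. With only the 6 MCD libraries the adjusted p from limma was 0.105 for Sult3a1 and 0.124 for Sult3a2, with a pseudocount of 0.1 it was 0.0521 and 0.109, and with no filter it was 0.0509 and 0.0824. Sult3a1 was not called without Pctp-/- MCD mouse 2 (adjusted p = 0.0675 from limma) or mouse 3 (0.0861), and Sult3a2 was not called without mouse 1, 2 or 3 (0.0595, 0.107 and 0.152). Without WT MCD mouse 1 the differences were smaller, 2.21 for Sult3a1 and 1.57 for Sult3a2, with adjusted p of 2.1e-04 and 0.00603 from limma. Over the 14 alternatives the Sult3a1 difference ran from 2.21 to 3.44 and that of Sult3a2 from 1.57 to 3.15.

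The Sult2a8 values did not overlap between the genotypes on MCD, but the gene was not called. Its mean was 85.4 ± 26.0 FPKM in WT and 145 ± 12.8 in Pctp-/- mice (SD, n = 3), a ratio of 1.70. The log2 difference was 0.80 (SE 0.18, 95% interval 0.42 to 1.18, adjusted p = 0.0603 from limma). The adjusted p ran from 0.00874 to 0.264 over the alternatives and passed the threshold in 1 of 14, without WT MCD mouse 3, the WT mouse with the highest value, where the difference was 1.00. Values of 4 of the 8 members did not overlap between the genotypes on MCD (Sult1c2, Sult2a8, Sult3a1 and Sult3a2, all higher in Pctp-/-), against 26.6% of tested genes. The Sult1c2 log2 difference was 0.16 (95% interval -0.13 to 0.45, adjusted p = 0.586 from limma).

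Sult1e1 did not separate the genotypes on MCD. Its mean was 186 ± 23.9 FPKM in WT and 152 ± 35.0 in Pctp-/- mice (SD, n = 3), with a log2 difference of -0.30 (95% interval -0.64 to 0.03, adjusted p = 0.356 from limma). The intervals were -0.14 to 0.65 for Sult1a1, -0.15 to 0.36 for Sult1b1 and -0.43 to 0.34 for Sult1d1. These intervals leave room for a difference of the size measured for Sult1e1 in 1 direction or the other, so they do not show that the genotypes were alike.

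**Figure D3:**
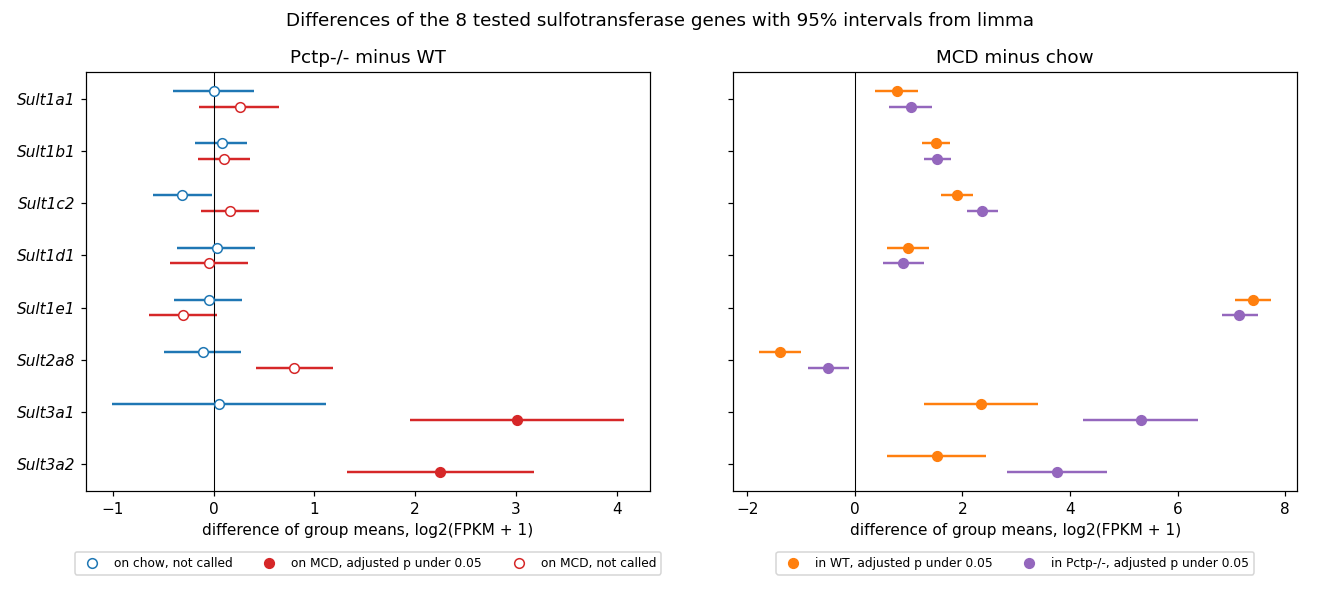
Differences of group means on the log2(FPKM + 1) scale for the 8 tested sulfotransferase genes, with 95% intervals from limma and filled points for an adjusted p under 0.05. The left panel gives Pctp-/- minus WT, where Sult3a1 (3.01) and Sult3a2 (2.25) on MCD are filled and Sult3a2 on chow has no point because all values are 0, and the right panel gives MCD minus chow, where all 8 genes are filled in both genotypes and Sult2a8 is the one below 0.

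The difference of the diet responses, Pctp-/- minus WT, was called for 0 of the 8 members in limma, where 0.0963% of tested genes were called, 0.0401% higher and 0.0562% lower. The split over all genes was 5 higher and 7 lower, and 13 and 5 with quantile normalization. An unadjusted p under 0.05 was reached by 4 of 8 members, against 1884 of 12466 tested genes, all 4 with a positive difference: Sult3a1 at 2.96 (SE 0.69, adjusted p = 0.111 from limma), Sult3a2 at 2.25 (SE 0.60, adjusted p = 0.139), Sult2a8 at 0.91 (SE 0.25, adjusted p = 0.142) and Sult1c2 at 0.47 (SE 0.19, adjusted p = 0.264). Without WT MCD mouse 1 the Sult3a1 difference of responses was 2.16 and was called (adjusted p = 0.00644 from limma), while that of Sult3a2 was 1.57 (adjusted p = 0.0581 from limma). Without WT MCD mouse 3 that of Sult2a8 was 1.11 and was called (adjusted p = 0.0472 from limma). The larger diet differences of Sult3a1 and Sult3a2 in Pctp-/- mice are therefore not shown to differ from those in WT in the fit of all 12 libraries.

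On MCD, Sult3a1 and Sult3a2 tended to vary together among the mice of a group. WT mice 2 and 3 were an exception, with Sult3a1 at 7.98 and 8.13 FPKM and Sult3a2 at 4.77 and 2.62. Over the 12 libraries, the deviations of log2(FPKM + 1) from the group means had a Pearson correlation of 0.96 between these genes, and of 0.65 without WT MCD mouse 1. For Sult2a8 and Sult3a1 it was 0.80, and -0.30 without that mouse, so the sign rested on 1 library. For Sult1e1 and Sult3a1 it was -0.58, and -0.83 without WT MCD mouse 1, so the negative sign did not rest on that mouse. WT MCD mouse 1 had the highest Sult1e1 value and the lowest Sult3a1 value on MCD. Pctp-/- MCD mouse 3 had the lowest Sult1e1 value and the highest Sult3a1 value. The points share libraries, and the chow values of Sult3a1 add almost nothing to these correlations.

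Genes outside the family with the most similar pattern were taken by Pearson correlation of log2(FPKM + 1) over the 12 libraries. For Sult1e1 they were Stap1 (0.996), Cdx4 (0.996) and Fermt1 (0.995), and 743 genes were above 0.95. For Sult2a8 they were Hao1 (0.977), Il1rap (0.973) and Cyp2j5 (0.967), with 17 genes above 0.95. For Sult3a1 they were Amy1 (0.964), Rpap3-ps2 (0.959) and B3galt1 (0.944), and Rpap3-ps2 overlaps Sult2a6 on the same strand. By deviations from the group means they were Cyp2c29 (0.975), Cyp2c50 (0.969) and Fndc5 (0.968) for Sult3a1, which dropped to 0.637, 0.527 and 0.756 without WT MCD mouse 1. For Sult2a8 they were Scp2-ps2 (0.926), Tmem147 (0.913) and Cct7 (0.904), at 0.673, 0.650 and 0.633 without it, and for Sult1e1 Trbj1-5 (0.910), Ints10 (0.894) and Cyb561a3 (0.885), at 0.910, 0.892 and 0.911.

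Of 11 other cytosolic sulfotransferase genes in the table, 3 passed the minimum FPKM: Sult2a6, Sult2a7 and Sult5a1. Sult2a6, a gene of the chromosome 7 cluster (chr7:14222403-14254870), was listed at 0 in all 6 chow libraries. On MCD it was at 18.8, 22.5 and 29.7 FPKM in WT and 47.6, 46.8 and 53.4 FPKM in Pctp-/- mice. The genotypes did not overlap on MCD, and the log2 difference was 1.05 (SE 0.14, adjusted p = 0.00419 from limma), a ratio of 2.08. Its difference of the diet responses was 1.05 and was not called (adjusted p = 0.0694 from limma). Sult2a7 was higher on MCD by 2.35 in WT and 2.29 in Pctp-/- mice, and Sult5a1 was lower, with -2.12 and -1.53. On chow, 0 of these 3 genes differed between the genotypes in limma at an adjusted or an unadjusted p under 0.05. Of all tested genes, 0.136% were called there, and 870 of 12466 had an unadjusted p under 0.05, so this count does not set them apart. With all chow values at 0, Sult2a6 could not differ there. Sult2a7 was low on chow, at means of 0.459 FPKM in WT and 0.601 in Pctp-/- mice.

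The genes that make and recycle PAPS, the sulfonate donor, were all 6 tested. Both PAPS synthases, Papss1 and Papss2, were not called in any comparison. Papss2 had means of 31.9 ± 0.480 and 30.1 ± 4.61 FPKM on chow and 29.6 ± 1.07 and 32.9 ± 0.955 on MCD in WT and Pctp-/- mice (SD, n = 3). Papss1 had 6.60 ± 0.626 and 7.17 ± 0.483 on chow and 5.95 ± 1.21 and 5.55 ± 0.671 on MCD (SD, n = 3). Of the 6 genes of this list, 2 were higher and 1 lower on MCD in each genotype. Over all tested genes, 57.0% were called for the diet in WT and 50.3% in Pctp-/- mice, so these counts do not set the list apart. These were Slc35b3, a Golgi transporter of PAPS (0.79 in WT, 0.72 in Pctp-/-), Impad1, a Golgi phosphatase of the PAPS product PAP (0.69 and 0.66), and Bpnt1, its cytosolic counterpart (-0.21 and -0.24). Their adjusted p-values from limma ran from 7.2e-05 to 0.0251.

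Among sulfate transporters, 4 of 6 were tested. Slc26a2, a sulfate transporter of the cell surface, was higher on MCD in both genotypes (0.54 in WT, 0.31 in Pctp-/-), Slc26a11 was lower in both (-0.76 and -0.57), and the anion exchanger gene Slc26a6 was higher in WT (0.53). Knockout differences were called for 0 of these 4 on either diet, against 0.136% of tested genes on chow and 0.818% on MCD.

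Inorganic sulfate comes largely from cysteine, and 11 of 12 genes of these steps were tested. On MCD in WT, 1 was higher (Tst, 0.47, named after its value was seen) and 5 lower, led by Csad (-1.04), Cbs (-0.77) and Suox (-0.48). In Pctp-/- mice 0 were higher and 4 lower, led by Csad (-3.12), Cbs (-0.96) and Ethe1 (-0.66). Over all tested genes, 34.5% were higher and 22.5% lower in WT, and 26.0% and 24.4% in Pctp-/- mice. Csad encodes the decarboxylase that leads cysteine sulfinate to taurine and away from sulfate. It was at 72.2 ± 19.8 FPKM in WT and 15.3 ± 2.29 FPKM in Pctp-/- mice on MCD (SD, n = 3), the only gene of the list called for the knockout (log2 difference -2.15, SE 0.18, adjusted p = 2.4e-04 from limma). Cdo1, the cysteine dioxygenase before this branch, was not called in any comparison.

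Sulfatases remove sulfate groups from their substrates, and 3 of 4 in the list were tested. Whether these 3 act on products of the cytosolic sulfotransferases was not tested. Arsg, a lysosomal sulfatase, was higher on MCD by 1.83 in WT and 1.84 in Pctp-/- mice, or 3.90 and 3.93 times in FPKM. Arsb was lower in both (-0.80 and -0.88) and Arsa was lower in WT (-0.38).

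**Figure D4:**
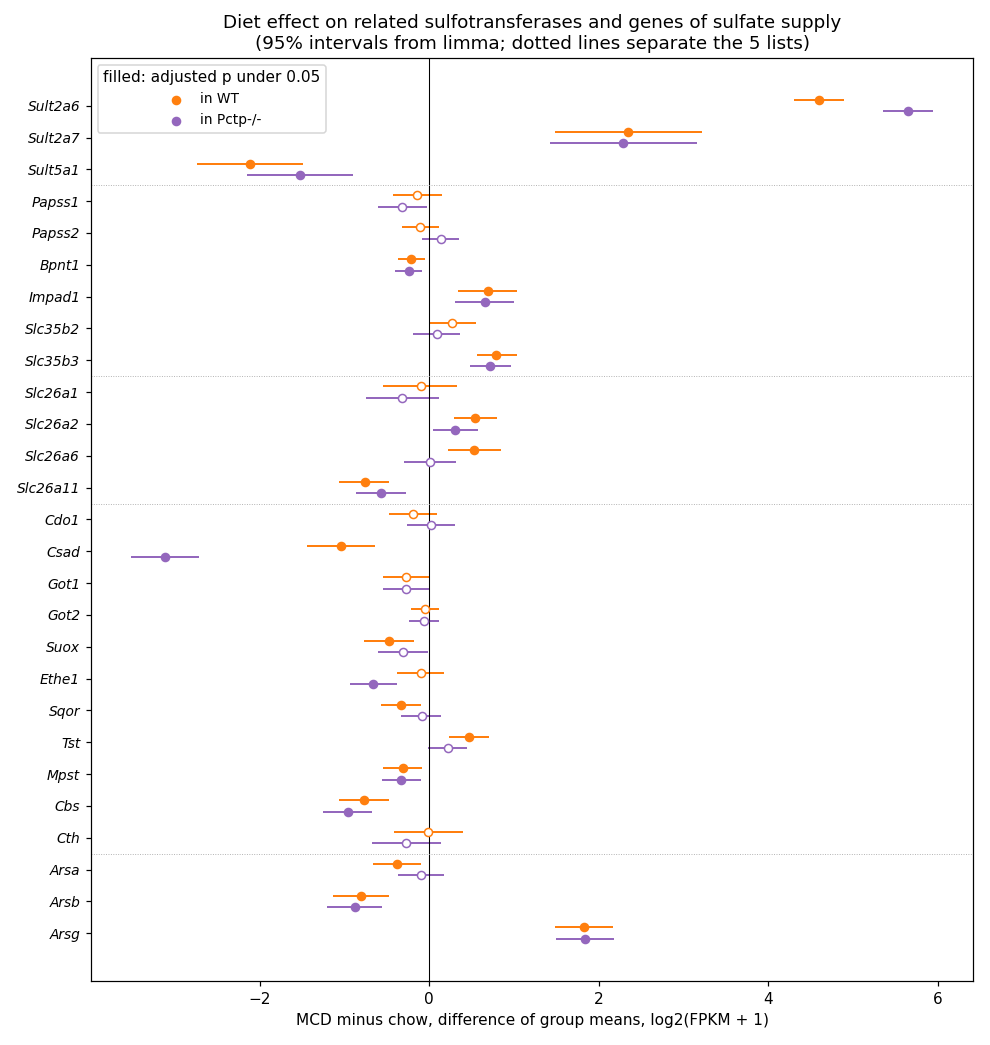
MCD minus chow for related sulfotransferases and for genes of PAPS supply, sulfate transport, sulfate formation and sulfatases, as differences of group means on the log2(FPKM + 1) scale with 95% intervals from limma; dotted lines separate the 5 lists and filled points have an adjusted p under 0.05. Sult2a6 (4.60 in WT, 5.65 in Pctp-/-) lies far to the right, Papss1 and Papss2 lie near 0, and Csad in Pctp-/- (-3.12) lies far to the left of its WT value.

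Of 14 genes for receptors and factors tied to sulfotransferase genes, 13 were tested, and 0 were called for the knockout on either diet. Of all tested genes, 0.136% were called on chow and 0.818% on MCD, so 0 of 13 does not set the list apart. At an unadjusted p under 0.05 in limma there were 1 of 13 on chow and 2 on MCD, against 870 and 2026 of 12466 tested genes. For the diet, 3 of the 13 were higher and 3 lower on MCD in WT, and 4 higher and 3 lower in Pctp-/- mice. Over all tested genes, 57.0% were called for the diet in WT and 50.3% in Pctp-/- mice, so these counts do not set the list apart. The largest were Hnf4a (-1.10 in WT, -0.87 in Pctp-/-) and Rxra, nuclear receptors of the hepatocyte, Esr1, the oestrogen receptor (0.90 in WT), and Nfe2l2, the oxidative stress factor (0.76 in Pctp-/-). Rxra was lower in both genotypes, at 0.496 times the chow FPKM in WT and with a log2 difference of -0.86 in Pctp-/- mice. The adjusted p-values of these genes from limma ran from 2.8e-06 to 0.00156.

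Sex-typical liver genes moved on the diet with the sulfotransferases. The animals were male, and the list of 20 female-typical genes summed to 12.1 to 18.3 FPKM in WT and 7.42 to 26.7 in Pctp-/- mice on chow, against 412 to 512 and 718 to 889 on MCD. Of its 15 tested genes, 13 were higher on MCD in WT (median of the 15, 2.14) and 14 in Pctp-/- mice (median 4.08). Over all tested genes, 34.5% and 26.0% were higher. The 15 passed the minimum FPKM partly through the MCD libraries, where they are high, so this count and median support nothing by themselves. The largest rise in WT was that of Cyp3a44 (6.24, adjusted p = 8.7e-08 from limma). The knockout on MCD was called for 2, both higher, among them Cyp3a41a (2.51, adjusted p = 2.6e-04 from limma), with a median of 0.74 over the 15. Of all tested genes, 0.297% were called higher there. The same 15 genes enter here, selected partly through the MCD libraries, so this count and median support nothing by themselves either. The 22 male-typical genes, all tested, summed to 9865 to 13416 FPKM on chow over both genotypes and to 1638 to 1735 on MCD. On MCD, 20 were lower in each genotype, led by Mup3 in WT (-4.66) and Elovl3 in Pctp-/- mice (-4.48). Over all tested genes, 22.5% were lower in WT and 24.4% in Pctp-/- mice. For the knockout on MCD 1 was higher, Mup3 (0.99, adjusted p = 0.0136 from limma). The part of these lists in the sulfotransferase values was not tested.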

How the data were processed

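Total liver RNA was sequenced by Novogene from 12 mice in 4 groups of 3. Expression was deposited by the authors as FPKM, 1 column a library, together with read and mapping statistics per library as read counts and percent values. Their processing notes name mm10, and the aligner, counter and annotation are not given in the sources used here. Of 35275 Ensembl identifiers, 34490 were matched to symbols and positions in GENCODE M21 (GRCm38), and 12879 genes were at 0 throughout. No pair of libraries held identical values. The 10 genes and the 14 other gene lists were chosen with earlier results of these data known.

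limma 3.58.1 in R 4.3.3 was fitted to log2(FPKM + 1) for the 12466 genes whose mean FPKM reached 0.5, with 1 mean per group, all 12 libraries sharing 1 estimate of the spread (8 residual degrees of freedom) and a mean-variance trend. Tests were two-sided with Benjamini-Hochberg adjustment over those genes, and genes at an adjusted p under 0.05 were called whatever their fold. FPKM are not counts, so the Wald test on counts that the study names was not used. Differences on this scale understate the change of genes with low FPKM. With 3 mice a group, p = 0.1 is the smallest value an exact permutation test can give. Replicate numbers name different mice in each group. The labels do not describe litters or cages, so p-values measure the spread between these mice.

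All 10 genes were named. Of the pathway lists, at most the 3 genes with the largest change among those called in a comparison were named, and of the sex-typical lists at most 2. The values of 1 gene that this rule names are not reported here. Papss1, Papss2, Tst and Cdo1 were named after their values were seen. Likeness was a Pearson correlation with no test. The alternatives were the pseudocount (0.1), the filter (none, or a mean FPKM of 2), quantile and median-of-ratios scaling, only the 6 libraries compared, a replicate block, no trend and each library left out. Shared windows of 100 bases were counted over GENCODE M21 transcripts, and promoters of 300 bases came from RefSeq. Protein sequences were not used here.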

Additional observations from a re-analysis of the deposited data

Results flagged for a closer look

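Among the genes named, a test of the difference between the diet responses of the genotypes (limma, over 12466 genes) passed an adjusted p of 0.05 for a pair of genes. For Csad the diet difference in Pctp-/- minus that in WT was -2.08 on the log2(FPKM + 1) scale (SE 0.26, adjusted p = 0.0144 from limma), with 148 ± 25.0 and 140 ± 16.1 FPKM on chow and 72.2 ± 19.8 and 15.3 ± 2.29 on MCD in WT and Pctp-/- mice (SD, n = 3). For Cyp3a41a it was 2.51 (SE 0.31, adjusted p = 0.0144 from limma), with mean FPKM of 3.55 in WT and 24.7 in Pctp-/- mice on MCD, and it was listed at 0 on chow. The test for a single outlying value within a group was not run on groups of 3 mice.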

How the results depend on the processing

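Of 586 alternative values of the 8 tested sulfotransferases, 548 kept their direction and their side of the threshold, 17 lost and 3 gained a call, and 18 small uncalled differences changed sign. All 8 diet calls in WT held in each alternative run. The count of members called for the knockout on MCD, 2, became 0 with only the 6 libraries compared, 0 with a pseudocount of 0.1 and 0 with no filter, and ran from 0 to 3 over the libraries left out in turn, with 3 without WT MCD mouse 3. For the difference of the diet responses the count ran from 0 to 1. In the libraries left out for these counts, the lone pair in a group was assumed to vary like the other groups. Fewer samples or more genes tested enter by construction with only the 6 libraries and with no filter, and otherwise the cause was not tested.

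Sign changes with quantile normalization were Sult1a1 on chow (-0.03), Sult1d1 on chow (-0.00043), Sult1d1 for the knockout on MCD (0.05) and its difference of responses (0.05). With median-of-ratios scaling those of Sult1d1 were 0.06 and 0.02, and with a pseudocount of 0.1 the Sult1e1 difference of responses was 0.16. With libraries left out, the ranges were -0.24 to 0.16 for Sult1a1, -0.02 to 0.19 for Sult1b1 and -0.07 to 0.10 for Sult1d1 between the genotypes on chow, -0.24 to 0.19 for Sult1d1 on MCD, and -0.08 to 0.12 for Sult1b1 and -0.27 to 0.16 for Sult1d1 in the difference of responses.

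Replicate numbers did not pair the samples (correlations of deviations -0.1 to 0.22). A replicate block gave 2 members called for the knockout on MCD, adjusted p = 0.0502 for Sult2a8 from limma, and changed no member's call. It moved the calls over all genes from 17 to 32 on chow and from 12 to 59 for the difference of responses. Over all alternatives, genes called ranged from 4 to 34 on chow, 19 to 173 for the knockout on MCD and 0 to 60 for the difference of responses. Low levels limit Sult1e1, Sult2a1, Sult2a2, Sult3a1 and Sult3a2 on chow, where depth allows no difference to be read.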

Other observations

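Sult2a3, a further gene of the chromosome 7 cluster, did not reach the minimum FPKM and was not tested. It was listed at 0 in all 6 chow libraries. On MCD it was at 0.519, 0.300 and 0.208 FPKM in WT and 0.894, 0.476 and 2.12 FPKM in Pctp-/- mice, and the genotypes overlapped.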
